A study of Mus musculus with 12 samples.

Results

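A set of 10 genes of the FOXO axis was followed in mouse embryonic fibroblasts that lack focal adhesion kinase (FAK) and in cells to which FAK was returned, each grown dense and sparse. The set, chosen by name, holds the transcription factors Foxo1, Foxo3 and Foxo4 and the targets Klhl24, Pik3ip1, Sesn1, Sesn3, Trim63, Txnip and Irs2. It and the gene lists used below were chosen with earlier results of these data known. Counts set beside the share of all genes therefore describe these genes and are no independent test of them. Their probes were found through the RefSeq transcript that the array gives for each probe, which matched 13 of 41174 probes and 9 of the 10 genes. Irs2 had no matching probe and was not analysed here. All 9 were among the 12411 genes tested, of 17016 genes on the array. Foxo1, Klhl24, Pik3ip1, Sesn1, Sesn3 and Txnip, 6 genes, were well above background on all 12 arrays. Trim63 and Foxo3 entered the test only through dense rescue cells, and Foxo4 only through the KO groups, so the place of these 3 among the tested genes rests on the groups in which they were high.

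The KO line is a FAK-Knockout fibroblast line, and the rescue line is clone DA2, a single clone in which FAK was expressed again. Both were kept in DMEM with Glutamax and 10% FBS, and the rescue line alone also received 135 µg/ml hygromycin B and non-essential amino acids, so that FAK, clone and medium cannot be told apart between the lines. The KO dense and rescue dense groups were seeded with 8200000 cells, and the KO sparse and rescue sparse groups with 410000 cells, in 10 cm dishes and harvested after 24 h. Each of the 4 groups had 3 cultures, 1 from each of 3 experimental days, and 100 ng of total RNA per culture went to 1 one-colour Agilent array.

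FOXO proteins bind DNA and switch on genes for cell cycle arrest, stress defence, autophagy and protein breakdown. When growth factors activate PI3-kinase, the kinases AKT and SGK phosphorylate FOXO proteins, which then bind 14-3-3 proteins and leave the nucleus, and the targets fall silent. FOXO activity is therefore set largely by the protein's phosphorylation and place in the cell, which arrays do not measure. Several targets feed back on the same pathway: Pik3ip1 encodes an inhibitor of PI3-kinase, Irs2 an insulin receptor substrate, and the sestrins restrain the growth kinase TORC1.

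Levels below are log2 processed signals minus the 75th percentile of the same array, so that 0 is the signal of a probe at that percentile. They are set against each other within a probe only. Replicate arrays correlated at 0.982 to 0.992 across genes, and each of the 12 arrays was nearest to an array of its own group. The authors' deposited value table goes against this in 4 of its 12 columns: those of day 3 matched the scanner array of the other line at the same density (correlation of centred values 0.903 to 0.932) and not their own (-0.68 to -0.52). Days 1 and 2 matched their own arrays (0.883 to 0.941). All values here come from the scanner files, and results with day 3 left out are given beside the counts. The arrays lay on 5 slides, and dense and sparse cultures of the same line and day were always on the same slide. KO and rescue cells met only on slide 3, which held the cultures of day 2.

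Fibroblast markers were present in every group, with 9 of 11 well above background on all arrays of KO dense, KO sparse and rescue sparse cells and 10 of 11 in rescue dense cells. Lum was well above background in rescue dense cells alone, and Thy1 on no array of KO sparse, rescue dense or rescue sparse cells. The summed linear level of the list was 402 to 439 in KO cells, against 1101 to 1988 in rescue cells. The mesothelial markers Wt1 and Upk3b were well above background on all KO arrays and on none of the rescue arrays, while Msln and Krt19 were so on all 12 arrays. By limma, 3 of the 5 mesothelial markers were higher and 1 lower in sparse KO than in sparse rescue cells (48.9% of all genes differed). In dense cells 4 were higher and 1 lower (61.6% of all genes differed). The summed linear level of all 5 was 69.2 to 77.8 in KO cells, against 23.6 to 42.1 in rescue cells. The 7 epithelial markers, of which Krt14, Krt8 and Krt18 were well above background on all 12 arrays and Cldn4 on none, summed to 101 to 148 in KO cells, against 1.48 to 6.91 in rescue cells. Cdh1 of that list went the other way. It was well above background on all dense rescue arrays and on no KO array, and lower in dense KO than in dense rescue cells (limma, adjusted p = 0.00149). The part of these markers in the differences between the lines was not tested. The targeted gene Ptk2 (FAK) has 2 probes, whose place relative to the deleted part was not known here. The dimmer read -1.88 to -1.10 in KO cells, against 0.23 to 1.24 in sparse and -0.97 to -0.17 in dense rescue cells. It fell with density in rescue cells by -1.38 (limma over all kept probes, adjusted p = 0.00454). Its difference between KO and rescue cells was -2.08 when sparse (adjusted p = 0.000162) and -0.93 when dense (adjusted p = 0.0208). The brighter read 0.03 to 0.50 in KO cells and 0.08 to 0.48 in rescue cells.

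Promoters are shown for the targets on which the results turn, as 250 bases before and 50 after the annotated transcript start (RefSeq, GRCm38.p6, each printed window on the plus strand). Windows were at hand for 8 of the 10 genes, 9 windows in all, since Sesn1 has 2 starts. Foxo4 and Klhl24 are named only. The FOXO core GTAAACA, searched on both strands, was present in 3 of the 9 windows, those of Txnip, Trim63 and the upstream start of Sesn1, and in 1199 of 32851 windows of the genome (3.65%). Capitals mark that match. In Txnip (chr3:96557707-96558006) it lies on the printed strand at position -121 from the start. In Trim63 (chr4:134314870-134315169) it lies on the opposite strand at position -194, and in Sesn1 (chr10:41810324-41810623) on the opposite strand at position 22. The windows of Pik3ip1 (chr11:3330481-3330780), which had the largest density difference in rescue cells among the 6 genes well above background on all arrays, and Sesn3 (chr9:14276051-14276350), which differed most between sparse KO and sparse rescue cells among them, hold no such match and are shown beside the 3 that do.
Txnip promoter: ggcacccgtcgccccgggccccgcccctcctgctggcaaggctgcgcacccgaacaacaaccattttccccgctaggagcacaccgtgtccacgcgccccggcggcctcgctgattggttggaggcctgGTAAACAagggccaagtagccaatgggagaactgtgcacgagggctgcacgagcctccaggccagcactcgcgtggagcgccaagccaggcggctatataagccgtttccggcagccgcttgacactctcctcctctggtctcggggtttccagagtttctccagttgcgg
Trim63 promoter: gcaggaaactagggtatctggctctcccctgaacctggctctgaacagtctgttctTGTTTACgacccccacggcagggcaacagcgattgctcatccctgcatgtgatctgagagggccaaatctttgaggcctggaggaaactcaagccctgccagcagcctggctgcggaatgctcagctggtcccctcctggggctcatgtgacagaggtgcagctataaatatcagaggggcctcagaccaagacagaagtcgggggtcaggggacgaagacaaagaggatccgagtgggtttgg
Sesn1 promoter: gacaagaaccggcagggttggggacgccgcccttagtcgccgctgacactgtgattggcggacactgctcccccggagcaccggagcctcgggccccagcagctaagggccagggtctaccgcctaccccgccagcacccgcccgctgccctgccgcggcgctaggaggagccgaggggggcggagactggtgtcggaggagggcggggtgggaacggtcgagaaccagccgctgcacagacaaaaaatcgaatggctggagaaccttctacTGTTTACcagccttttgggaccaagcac
Pik3ip1 promoter: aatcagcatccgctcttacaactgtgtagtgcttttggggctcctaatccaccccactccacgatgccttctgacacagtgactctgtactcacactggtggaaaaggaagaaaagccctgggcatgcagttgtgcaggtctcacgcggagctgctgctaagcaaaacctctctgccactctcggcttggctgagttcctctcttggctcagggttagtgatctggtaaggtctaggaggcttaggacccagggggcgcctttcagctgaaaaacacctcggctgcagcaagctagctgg
Sesn3 promoter: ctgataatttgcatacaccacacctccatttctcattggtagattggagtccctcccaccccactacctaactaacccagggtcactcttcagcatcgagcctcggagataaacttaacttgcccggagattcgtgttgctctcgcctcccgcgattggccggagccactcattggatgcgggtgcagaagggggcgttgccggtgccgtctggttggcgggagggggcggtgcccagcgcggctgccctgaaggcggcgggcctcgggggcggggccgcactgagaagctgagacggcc
The related letters CAAAACA, part of the insulin response element (6.28% of all windows), and the E-box CACGTG (7.15%) were found in neither strand of these 5 windows. A match is a run of letters and shows no binding, and its lack in 300 bases says nothing about the factor.

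Most of the FOXO set was higher in dense than in sparse rescue cells. In dense against sparse rescue cells 8 of the 9 genes rose and 0 fell, while 1, Foxo4, did not pass (limma, Benjamini-Hochberg adjusted p under 0.05 over all genes tested). Among all 12411 genes 40.1% changed in that comparison, 19.1% upward and 21% downward. The median change was 1.73 over the 9 genes and -0.08 over all genes. Of the 6 genes well above background on every array, 6 rose. With only the 10027 genes well above background on all 12 arrays tested, 4504 changed, 2001 of them upward. The count was 9 of 9 with day 3 left out, where 3756 of the 12411 genes changed, 1789 of them upward.

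The same change of density gave 0 calls of 9 in KO cells by limma, where 11% of all genes changed, 5.45% upward and 5.5% downward. At an unadjusted p under 0.05 there were 4, Pik3ip1, Klhl24, Foxo1 and Sesn1, and these 4 were higher in dense KO cells on average, against 27.2% of all genes at that threshold, 13.5% upward. Dense and sparse KO cultures did not overlap for 4 genes, Foxo1, Pik3ip1, Sesn1 and Txnip, all higher when dense, as was so for 19.1% of all genes. With the experimental day as a replicate block, Pik3ip1 (adjusted p = 0.0369) and Sesn1 (adjusted p = 0.0393) rose in KO cells, a count of 2. That fit called 1606 of the 12411 genes, 809 of them upward. With day 3 left out the count was also 2, where 635 of the 12411 genes changed, 291 of them upward. The median change over the 9 genes in KO cells was 0.39, against -0.0037 over all genes. Under other settings the KO count lay between 0 and 4, apart from a spike-in scaling described further on.

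**Figure D1:**
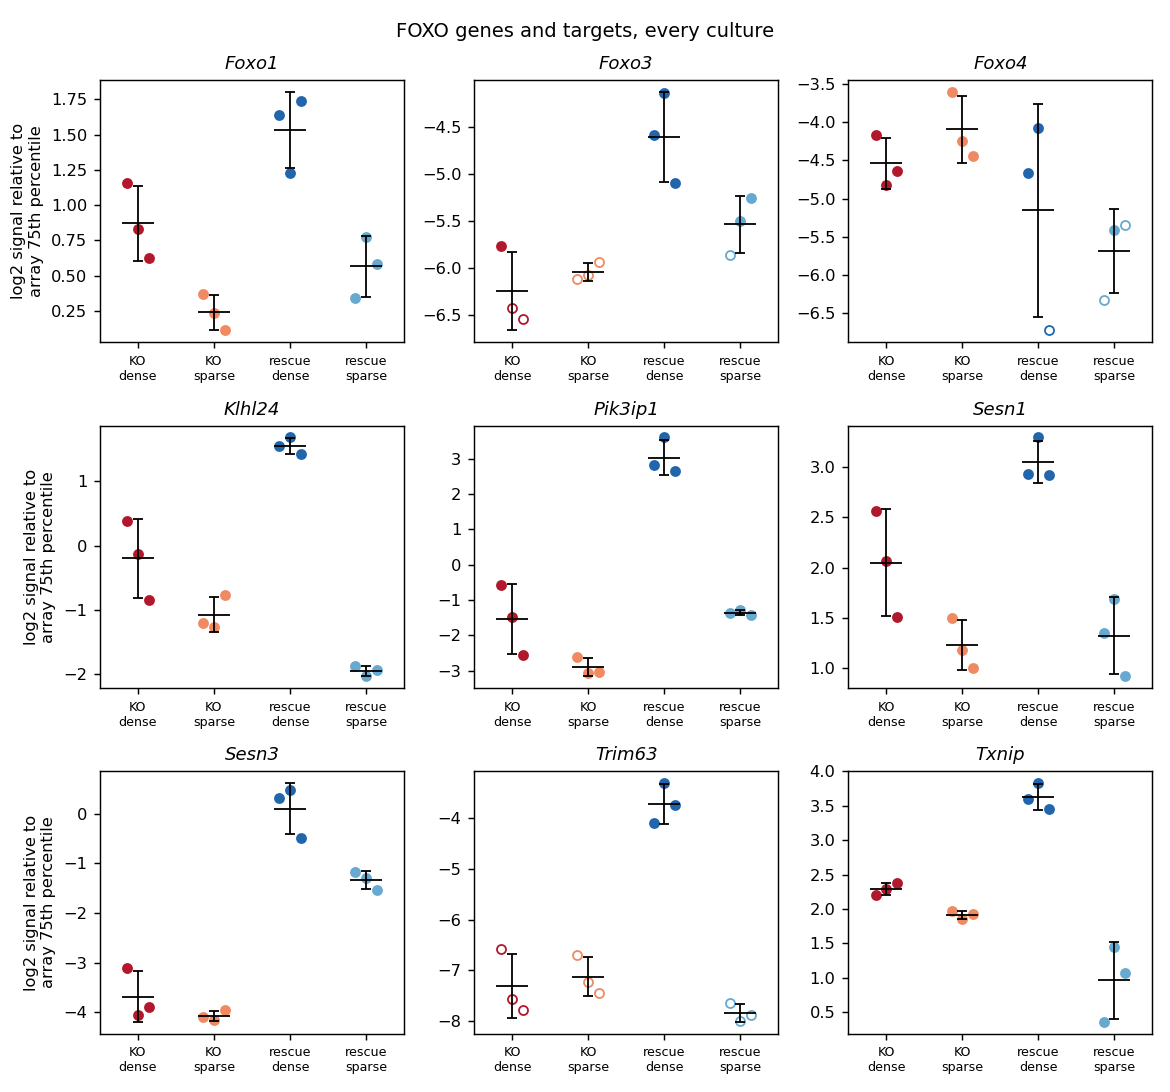
Level of the probe that stands for each gene in every culture (y axis, log2 signal relative to the array's 75th percentile), with groups on the x axis, 3 cultures per group, and the bar giving mean ± SD. Filled points are well above background and open points are not. Dense rescue cultures stood above all other cultures for Foxo3, Klhl24, Pik3ip1, Sesn3, Trim63, Txnip, Sesn1 and Foxo1. For Foxo4 they overlapped the KO cultures. Trim63 and Foxo3 entered the test only through dense rescue cells, the highest group here. The share of all genes with this order was not counted, so the order is a description of these genes only.

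Foxo1, the family member best known for insulin signalling, gave 1.16, 0.83 and 0.63 in dense KO cells and 0.37, 0.23 and 0.12 in sparse KO cells on days 1 to 3. Dense rescue cells gave 1.64, 1.23 and 1.74, against 0.34, 0.77 and 0.58 in sparse rescue cells. Dense cultures lay above sparse ones in both lines without overlap, and the lowest dense rescue culture lay above the highest dense KO culture. Foxo1 rose with density in rescue cells by 0.97 ± 0.20 on the log2 scale (SE, adjusted p = 0.00268). In KO cells its density difference was 0.63 ± 0.20 (adjusted p = 0.0675). Dense KO cells were lower than dense rescue cells by -0.66 ± 0.20 (adjusted p = 0.0135), a call that was lost without dense KO culture 3 (-0.54, adjusted p = 0.0583), without dense rescue culture 3 (-0.56, adjusted p = 0.0511) and with day 3 left out (-0.44, adjusted p = 0.173). In sparse cells the difference of -0.33 ± 0.20 did not pass (adjusted p = 0.205). A second Foxo1 probe rose with density in rescue cells by 1.30 (adjusted p = 0.00726), whereas its difference of -0.62 between dense KO and dense rescue cells did not pass (adjusted p = 0.106), though it did without dense rescue culture 3 (-0.89, adjusted p = 0.0339). Such further probes were tested in a fit of all 25877 probes kept, in which 47.1% passed between sparse KO and rescue cells, 57.6% between dense KO and rescue cells, 12% with density in KO cells, 35.2% with density in rescue cells and 17.8% in the interaction.

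Foxo3, a close relative that drives the atrophy and apoptosis programmes, was near the detection limit. Its only probe was well above background in 1 of 3 dense KO and 0 of 3 sparse KO cultures, and in 3 of 3 dense rescue and 2 of 3 sparse rescue cultures. It read -5.77, -6.43 and -6.54 in dense KO cells and -6.12, -6.08 and -5.94 in sparse KO cells. Dense rescue cells read -4.59, -4.14 and -5.10, against -5.86, -5.50 and -5.26 in sparse rescue cells. The 3 dense rescue cultures were the highest of the 12. Foxo3 rose with density in rescue cells by 0.93 ± 0.27 (SE, adjusted p = 0.018) and was lower in dense KO than in dense rescue cells by -1.64 ± 0.27 (adjusted p = 0.000242). The first of these calls was lost without sparse rescue culture 1 (0.77, adjusted p = 0.07), without dense rescue culture 2 (0.69, adjusted p = 0.0721), with a mean-variance trend in limma (adjusted p = 0.071) and with normexp background correction (0.17, adjusted p = 0.236). Sparse KO cultures were all at background and dense KO cultures on 2 of 3 arrays, so that the fitted values that involve KO cells are no measured sizes for Foxo3.

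Foxo4, a further FOXO family member, was above background more often in KO than in rescue cells. It read -4.16, -4.82 and -4.64 in dense KO cells and -3.60, -4.25 and -4.44 in sparse KO cells, all 6 well above background. It read -4.67, -4.07 and -6.72 in dense rescue cells and -6.33, -5.41 and -5.34 in sparse rescue cells, with 2 of 3 and 1 of 3 cultures above background. Dense rescue culture 3 was the lowest of the 12. Foxo4 entered the test only through the KO groups. It was higher in sparse KO than in sparse rescue cells by 1.60 ± 0.56 (SE, adjusted p = 0.0319). That call was lost under 11 of 25 alternatives, among them no filter on dim probes (adjusted p = 0.0546) and leaving out sparse KO culture 1 (1.35, adjusted p = 0.108) or 2 (1.67, adjusted p = 0.053) or sparse rescue culture 1 (1.28, adjusted p = 0.116). No density difference passed for Foxo4 (-0.45 ± 0.56 in KO cells, 0.54 ± 0.56 in rescue cells). Without dense rescue culture 3, the density difference in rescue cells was 1.32 (adjusted p = 0.0168).

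Pik3ip1, whose membrane protein holds PI3-kinase in check, had the largest density difference in rescue cells and the largest difference between the dense lines among the 6 genes well above background on all arrays. It read -0.58, -1.48 and -2.54 in dense KO cells and -2.61, -3.06 and -3.02 in sparse KO cells. In dense rescue cells it read 2.83, 3.60 and 2.66, against -1.37, -1.27 and -1.41 in sparse rescue cells. The 3 dense rescue cultures stood apart from all others, and dense KO and sparse rescue cultures overlapped. It rose with density in rescue cells by 4.38 ± 0.41 (SE, adjusted p = 1.38e-05) and by 4.07 to 4.88 on single days. In KO cells the difference was 1.36 ± 0.41 (adjusted p = 0.0524, 95% interval 0.48 to 2.25), with 0.48 to 2.03 on single days. It passed without dense KO culture 3 (1.87, adjusted p = 0.00759) and without dense rescue culture 2, which enters the shared variance (1.36, adjusted p = 0.046). Pik3ip1 was lower in KO than in rescue cells at both densities, by -4.56 ± 0.41 in dense cells (adjusted p = 1.24e-06) and by -1.55 ± 0.41 in sparse cells (adjusted p = 0.00763).

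Sesn1 and Sesn3 encode sestrins, which answer oxidative stress and amino acid shortage and lower TORC1 activity. Sesn1 read 2.57, 2.07 and 1.51 in dense KO cells and 1.502, 1.19 and 1.01 in sparse KO cells. Dense rescue cells read 2.93, 3.29 and 2.92, against 1.36, 1.69 and 0.92 in sparse rescue cells. Dense rescue cultures were highest, and dense KO cultures lay just above sparse KO cultures. Sesn1 rose with density in rescue cells by 1.73 ± 0.28 (SE, adjusted p = 0.000521). In KO cells the difference was 0.82 ± 0.28 (adjusted p = 0.0847, 95% interval 0.20 to 1.43), and it passed without dense KO culture 3 (1.09, adjusted p = 0.0336). Dense KO cells were lower than dense rescue cells by -1.0004 ± 0.28 (adjusted p = 0.00832). In sparse cells the lines differed by -0.09 ± 0.28 (adjusted p = 0.812), while probe A_52_P53596 was lower in sparse KO cells (-0.52 ± 0.19, adjusted p = 0.0365). That probe's call was lost in 6 of the 12 fits that left out 1 culture (adjusted p = 0.052 to 0.102), those without any 1 sparse KO culture, dense KO culture 2 or sparse rescue culture 2 or 3. All 3 Sesn1 probes rose with density in rescue cells, by 0.95 to 1.73, and all 3 were lower in dense KO than in dense rescue cells. The rise of probe A_51_P266644 was lost without sparse rescue culture 2 or 3 or dense rescue culture 2 (0.56 to 0.87), and its difference between the dense lines (-0.92) without dense KO culture 2 (-0.88, adjusted p = 0.0502) or dense rescue culture 2 (-0.53, adjusted p = 0.0503). In KO cells probe A_52_P53596 rose by 0.98 (adjusted p = 0.00733), and probe A_51_P266644 did not pass at 0.28 (adjusted p = 0.577).

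Sesn3 separated the lines at both densities. It read -3.10, -4.05 and -3.89 in dense KO cells and -4.09, -4.16 and -3.96 in sparse KO cells. In dense rescue cells it read 0.31, 0.47 and -0.49, against -1.18, -1.29 and -1.53 in sparse rescue cells. The highest KO culture lay below the lowest rescue culture. Sesn3 was lower in KO cells by -3.78 ± 0.29 when dense (SE, adjusted p = 3.04e-07) and by -2.74 ± 0.29 when sparse (adjusted p = 7.25e-06). It rose with density in rescue cells by 1.43 ± 0.29 (adjusted p = 0.00202). In KO cells its difference of 0.39 ± 0.29 did not pass (adjusted p = 0.413).

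Klhl24 encodes an adaptor of a ubiquitin ligase. It read 0.38, -0.14 and -0.85 in dense KO cells and -1.20, -1.26 and -0.76 in sparse KO cells. Dense rescue cells read 1.55, 1.68 and 1.43, against -1.88, -2.03 and -1.94 in sparse rescue cells. Rescue cultures thus held both the highest and the lowest levels, and in KO cells the densities overlapped through culture 3. Klhl24 rose with density in rescue cells by 3.504 ± 0.27 (SE, adjusted p = 4.21e-06), and in KO cells the difference was 0.88 ± 0.27 (adjusted p = 0.0589). Without dense KO culture 3 the KO difference was 1.20 (adjusted p = 0.00996). Against rescue cells, KO cells were lower when dense (-1.76 ± 0.27, adjusted p = 0.000122) and higher when sparse (0.87 ± 0.27, adjusted p = 0.0179). The sparse call was lost without sparse KO culture 3 (0.72, adjusted p = 0.0736) or sparse rescue culture 2 (0.83, adjusted p = 0.0517).

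Txnip encodes an alpha-arrestin that binds thioredoxin and limits glucose uptake. It read 2.21, 2.28 and 2.37 in dense KO cells and 1.96, 1.85 and 1.93 in sparse KO cells. Readings were 3.60, 3.83 and 3.46 in dense rescue cells, against 0.36, 1.46 and 1.07 in sparse rescue cells. No groups overlapped, and KO cells lay between the rescue densities. Txnip rose with density in rescue cells by 2.67 ± 0.24 (SE, adjusted p = 1.18e-05), while in KO cells the difference was 0.37 ± 0.24 (adjusted p = 0.344). It was lower in dense KO than in dense rescue cells (-1.34 ± 0.24, adjusted p = 0.000414) and higher in sparse KO than in sparse rescue cells (0.95 ± 0.24, adjusted p = 0.00607). With day 3 left out the sparse difference was 1.0001 (adjusted p = 0.0541). The second, dimmer Txnip probe disagreed in KO cells. It read -2.91, -2.47 and -2.47 in dense KO cells against -2.09, -1.95 and -1.26 in sparse KO cells, and fell with density there (-0.85 ± 0.25, adjusted p = 0.0451). That fall passed in 3 of the 12 fits that left out 1 culture, those without sparse KO culture 1, sparse rescue culture 3 or dense rescue culture 2, and had adjusted p = 0.0518 to 0.153 in the other fits. In rescue cells it rose with the first probe (1.80 ± 0.25, adjusted p = 0.000235).

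**Figure D2:**
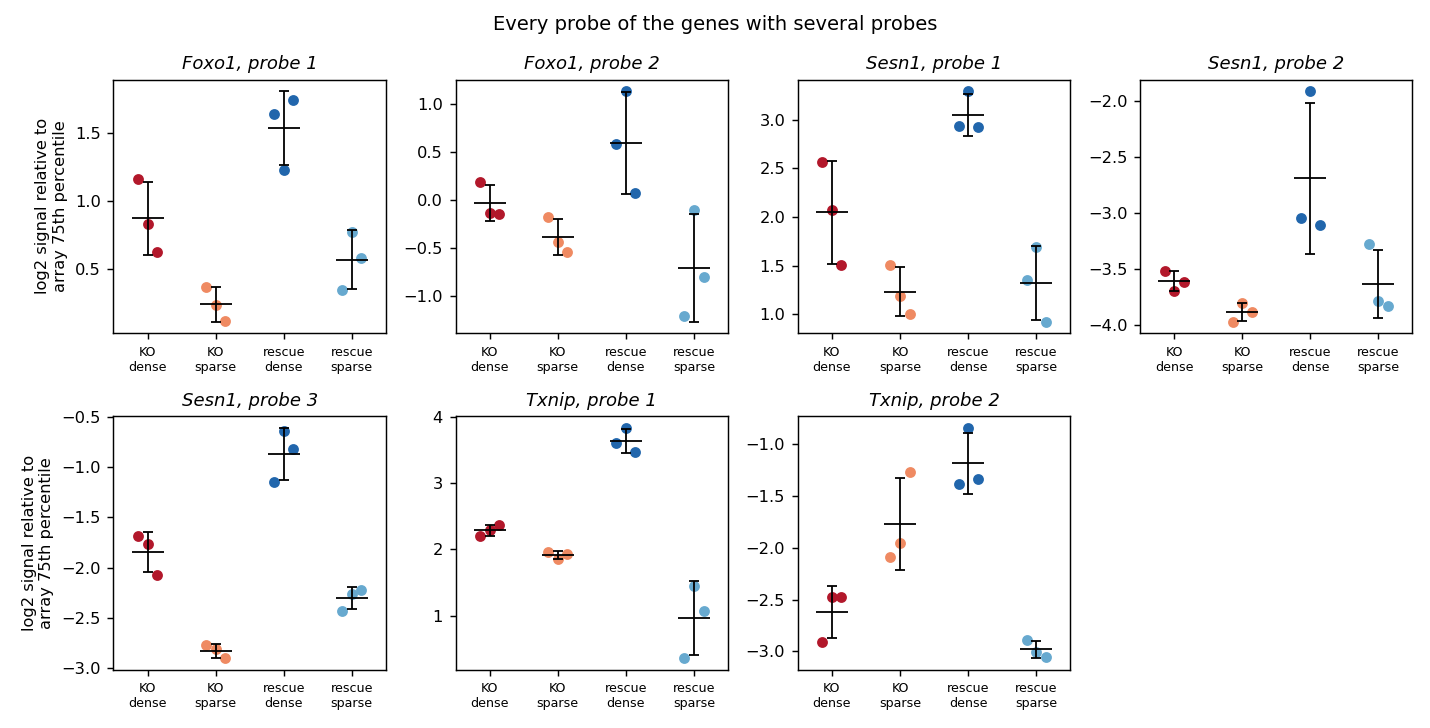
Every probe of Foxo1, Sesn1 and Txnip, the genes with several probes, in all 12 cultures (y axis, log2 signal relative to the array's 75th percentile; bars give mean ± SD, n = 3). The second Txnip probe was lower in dense than in sparse KO cells (-0.85), whereas the first differed by 0.37, and both were highest in dense rescue cells.

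Trim63 encodes the muscle ubiquitin ligase MuRF1, an atrophy gene of the FOXO programme in muscle. It read -6.58, -7.57 and -7.78 in dense KO cells and -6.71, -7.22 and -7.46 in sparse KO cells. Dense rescue cells read -4.09, -3.31 and -3.74, against -7.64, -7.99 and -7.88 in sparse rescue cells. Only the 3 dense rescue cultures were well above background. Dense KO cells were lower than dense rescue cells (adjusted p = 1.22e-06), and dense rescue cells higher than sparse rescue cells (adjusted p = 4.5e-06). With dimmer readings raised to the dimmest signal still above background on each array, the folds were 4.52 and 4.79. A probe at background can read above that signal, so these folds are no strict lower bounds. Among 25 alternatives the fitted rise in rescue cells was as low as 0.72 on the log2 scale. In sparse cells the lines differed by 0.71 with both at background (adjusted p = 0.0864, or 0.0332 without dense KO culture 1). Of 14 skeletal muscle markers, 6 were well above background on all 3 arrays in dense KO cells, 5 in sparse KO cells, 4 in dense rescue cells (Des, Acta1, Tnnt3 and Mylpf) and 3 in sparse rescue cells. On no dense rescue array were 7 of the others, Myod1, Myog and Ckm among them, well above background. The summed linear level of all 14 was 3.96 to 4.57 in dense KO cells and 3.73 to 4.19 in sparse KO cells, against 0.959 to 1.61 in dense rescue cells and 1.98 to 3.66 in sparse rescue cells. Myl1, a muscle myosin light chain gene outside that list, is named only as 1 of the 2 genes nearest to Trim63 in pattern over these arrays. Its likeness to Trim63 therefore follows from that choice. Myl1 averaged -7.59 ± 0.77 in dense KO cells and -7.44 ± 0.12 in sparse KO cells, and -4.05 ± 0.33 in dense rescue cells against -7.51 ± 0.40 in sparse rescue cells (SD, n = 3 each). Outside dense rescue cells these Myl1 means lay in the range of the Trim63 means at background (-7.84 to -7.13), so they may be no measured levels. The part of muscle cells in the Trim63 result was not tested. Fewer cells of a type and less RNA per cell cannot be told apart in such bulk samples.

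The question of whether the lines answered density differently was put by the interaction, dense minus sparse in KO cells minus the same in rescue cells. Of the 9 genes 4 passed it. They were Klhl24 (-2.63 ± 0.38, SE, adjusted p = 0.000826), Pik3ip1 (-3.02 ± 0.57, adjusted p = 0.00391), Txnip (-2.29 ± 0.34, adjusted p = 0.000938) and Trim63 (adjusted p = 0.000152). All 4 had the smaller density difference in KO cells. Trim63 was well above background in dense rescue cells alone, so that its fitted interaction (-4.31, or -0.64 with normexp background correction) is no measured size. Under spike-in scaling the calls of Klhl24 (-0.28, adjusted p = 0.685), Pik3ip1 (-0.67, adjusted p = 0.336) and Txnip (0.0573, adjusted p = 0.934) were lost. In the same comparison 20.8% of all genes passed, 11.3% upward and 9.52% downward. Foxo3 (-1.13, adjusted p = 0.059), Sesn3 (-1.04, adjusted p = 0.0909), Sesn1 (-0.91, adjusted p = 0.127), Foxo4 (-0.98, adjusted p = 0.401) and Foxo1 (-0.33, adjusted p = 0.434) did not pass. Both Txnip probes passed, the second at -2.65 (adjusted p = 0.000743). The count was 4 with day 3 left out, where 1238 of the 12411 genes passed. It was 7 without dense KO culture 1, with Foxo3, Sesn1 and Sesn3 added, where 2582 of all genes passed. It was also 7 without dense rescue culture 3, with Foxo3, Foxo4 and Sesn3 added, where 2453 of all genes passed.

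**Figure D3:**
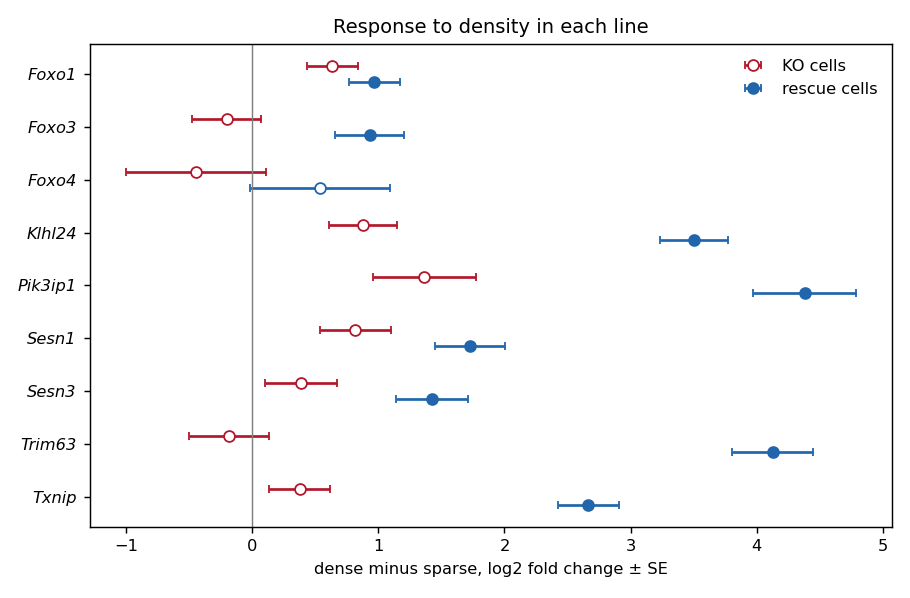
Log2 fold change of dense against sparse cells (x axis, ± SE) for each gene, KO cells above rescue cells, 3 cultures per group. Filled points passed an adjusted p of 0.05. Rescue cells passed for 8 genes, with Pik3ip1 at 4.38 and Trim63 at 4.13, and KO cells for 0; the fitted values of Trim63 and Foxo3 involve groups at background.

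Between the lines, the FOXO set differed most in dense cells. Of the 9 genes 8 were lower in dense KO than in dense rescue cells, 0 were higher and Foxo4 did not pass (0.61 ± 0.56, adjusted p = 0.359). Among all genes 61.6% differed in this comparison, 31.9% higher and 29.8% lower in KO cells. The median difference was -1.64 over the 9 genes and 0.07 over all genes. That median of the 9 was the fitted value of Foxo3, which is no measured size. With only genes well above background on all 12 arrays tested, the median was -1.55 over the 6 genes and 0.08 over all such genes. Trim63 and Foxo3 are among the 8 and entered the test only through dense rescue cells, the higher group here. Of the 6 genes well above background on every array, 6 were lower. With only the 10027 genes well above background on all 12 arrays tested, 3245 were higher and 2879 lower. With day 3 left out 7 of the 9 were lower, without Foxo1, where 6858 of the 12411 genes differed, 3462 of them lower.

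In sparse cells the set was mixed. Foxo4, Klhl24 and Txnip were higher in sparse KO than in sparse rescue cells, Pik3ip1 and Sesn3 were lower, and Foxo1, Foxo3, Sesn1 and Trim63 did not pass. Foxo4 entered the test only through the KO groups, the higher line here, and its call was lost under 11 of 25 alternatives. With day 3 left out 4 passed, where 5181 of the 12411 genes differed. Among all genes 48.9% differed, 23.3% higher and 25.6% lower in KO cells. The median difference was -0.09 over the 9 genes and 0.02 over all genes. These comparisons share their groups with the density comparisons, so that the dense rescue cultures enter both. Klhl24 and Txnip were called in opposite directions at the 2 densities, and Pik3ip1 and Sesn3 were called lower in KO cells at both.

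**Figure D4:**
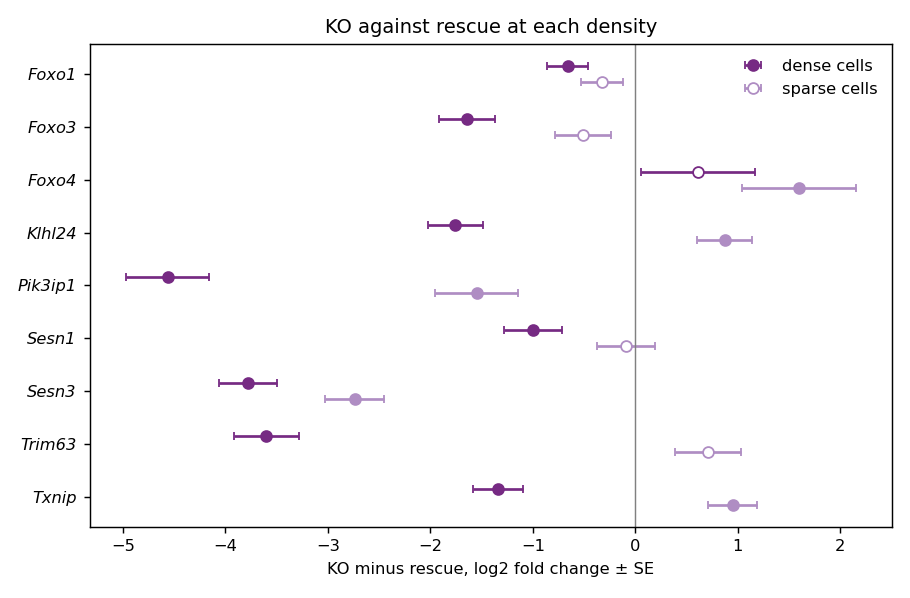
Log2 fold change of KO against rescue cells (x axis, ± SE), dense cells above sparse cells, 3 cultures per group, filled where the adjusted p was under 0.05. In dense cells 8 genes lay below 0, with Pik3ip1 at -4.56; in sparse cells Klhl24 and Txnip lay above 0, which turned below 0 under spike-in scaling (-0.67 and -0.60), as did Foxo1 in dense cells the other way (0.14).

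Line and slide overlapped except on slide 3, where each group had 1 culture and no test is possible. There KO minus rescue in dense cells was -5.08 for Pik3ip1, -4.53 for Sesn3, -1.82 for Klhl24, -1.54 for Txnip, -1.22 for Sesn1 and -0.39 for Foxo1, all with the sign of the comparison over 3 days. Trim63 and Foxo3 were lower in KO cells there too, with the KO culture at background. Foxo4 read -0.75 there. In sparse cells on that slide Pik3ip1 gave -1.79 and Sesn3 -2.87, and Foxo4 gave 1.16, Klhl24 0.77 and Txnip 0.40. With the slide as a fixed block the sparse calls of Foxo4 (0.70, adjusted p = 0.494), Klhl24 (0.79, adjusted p = 0.187) and Txnip (0.57, adjusted p = 0.176) and the dense call of Foxo1 (-0.63, adjusted p = 0.0998) were lost, while the second Foxo1 probe passed between the dense lines (-1.27, adjusted p = 0.0106).

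Some of these calls changed with the scaling of the arrays. Centring on the median of each array in place of the 75th percentile moved the median of all genes by -0.30 between sparse lines and by 0.25 with density in KO cells. It left 3 calls between the sparse lines, with Foxo3 added as lower (-0.81, adjusted p = 0.0289) and Foxo4, Klhl24 and Txnip lost. It gave 4 calls with density in KO cells, Foxo1, Klhl24, Pik3ip1 and Sesn1, all higher. Scaling to the spike-in RNA moved the median of all genes by 3.07 with density in KO cells, so that 12351 of 12411 genes and all 9 of the FOXO set rose there. In rescue cells 9 of the set rose under it, with a median of 2.45, against 0.64 over all genes. Between the dense lines it left 3 lower, Pik3ip1, Sesn3 and Trim63, and made Foxo4 higher (1.42), with a median of -0.84 over the 9 genes and 0.88 over all genes. The median of -0.84 was again the fitted value of Foxo3. Between the sparse lines 5 were lower, Foxo1, Foxo3, Pik3ip1, Sesn1 and Sesn3, and 0 higher, with medians of -1.64 and -1.52. In the interaction only Trim63 kept its call under it, while Foxo1 (2.01) and Sesn1 (1.44) passed with the opposite sign, below the median of 2.39 over all genes.

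Other FOXO targets were read from a list of 53 genes, of which 51 were on the array and 45 were tested. That list, too, was chosen with earlier results of these data known. With density in rescue cells 24 rose, 6 fell and 15 did not pass (66.7% called, against 40.1% of all genes), with a median of 0.70 (-0.08 over all genes). With density in KO cells 6 rose, 4 fell and 35 did not pass (22.2% called, against 11% of all genes; median 0.19), and leaving out 1 culture gave 2 calls (without dense KO culture 2) to 11. Fbxo32, the other muscle atrophy ligase (atrogin-1), averaged -2.90 ± 0.17 in dense KO cells and -3.01 ± 0.17 in sparse KO cells, and 0.22 ± 0.33 in dense rescue cells against -2.77 ± 0.39 in sparse rescue cells (SD, n = 3 each). It rose with density in rescue cells by 2.99 ± 0.23 (SE, adjusted p = 4.5e-06), and its interaction was -2.88 (adjusted p = 0.000224). Bcl2l11, which encodes the cell death protein BIM, rose in rescue cells by 2.96 ± 0.24 (adjusted p = 5.79e-06; interaction -2.41, adjusted p = 0.000742). Unlike Fbxo32 it was high in KO cells at both densities, with 2.76 ± 0.42 when dense and 2.21 ± 0.21 when sparse. Dense rescue cells averaged 2.95 ± 0.22, against -0.02 ± 0.31 in sparse rescue cells (SD, n = 3 each). Ccnd2, a D-type cyclin that FOXO proteins repress, fell in rescue cells (-2.21 ± 0.17, adjusted p = 4.8e-06; interaction 2.05, adjusted p = 0.000299). The cyclin G gene Ccng2 rose in both lines (1.70 ± 0.35 in KO cells, adjusted p = 0.0115; 2.27 ± 0.35 in rescue cells, adjusted p = 0.000356), and the pseudokinase gene Trib1 fell in both (-1.08 ± 0.18 in KO cells, adjusted p = 0.00506; -1.35 ± 0.18 in rescue cells, adjusted p = 0.000149). Arrdc3, an alpha-arrestin gene, rose in KO cells (1.69 ± 0.25, adjusted p = 0.00303) and did not pass in rescue cells (0.51 ± 0.25, adjusted p = 0.129), with an interaction of 1.18 (adjusted p = 0.0369).

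**Figure D5:**
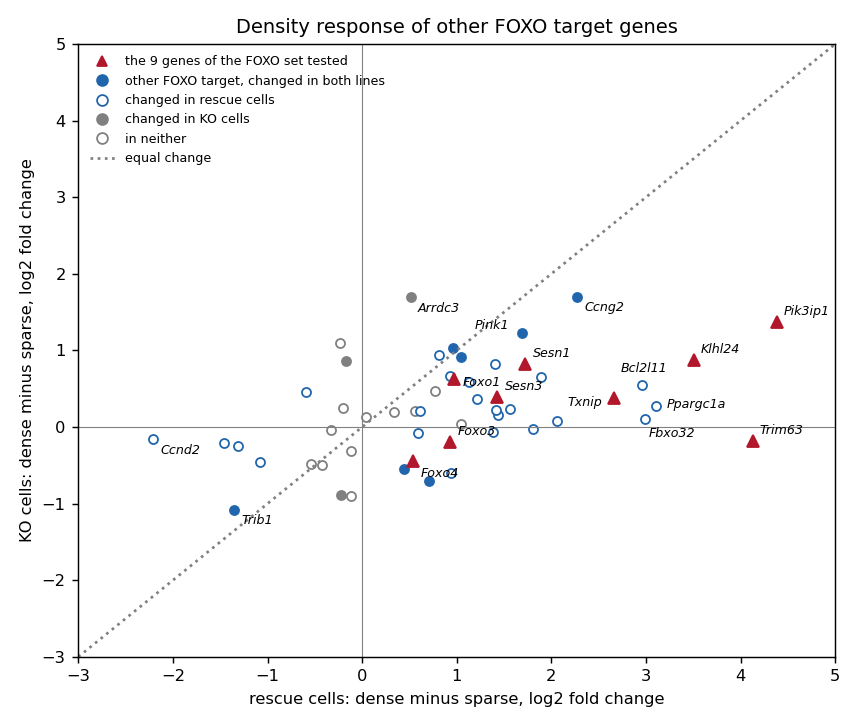
Dense minus sparse log2 fold change in rescue cells (x axis) and in KO cells (y axis) for 45 other FOXO targets (circles) and the 9 genes of the set (triangles), each from 3 cultures per group. Colour and fill show in which line an adjusted p was under 0.05. Fbxo32 (2.99), Bcl2l11 (2.96) and Ppargc1a (3.11) lay far to the right with small values on the y axis, and Ccnd2 (-2.21) far to the left. The y value of Ppargc1a came from KO cultures of which 1 of 6 was above background. Bcl2l11 was high in KO cells at both densities (2.76 dense and 2.21 sparse, against 2.95 in dense rescue cells).

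Between the lines, 20 of the 45 were lower and 11 higher in dense KO cells (68.9%, against 61.6% of all genes; median -0.50). In sparse KO cells 15 were lower and 12 higher (60%, against 48.9% of all genes; median -0.31). Ppargc1a, which encodes the mitochondrial coactivator PGC-1 alpha, was not well above background in sparse KO cells. It was lower there than in sparse rescue cells (adjusted p = 6.98e-08). The fold was 36 against the dimmest signal still above background on each array, which is no strict lower bound. Foxo6, the remaining FOXO family member, carried on the same list, was higher in KO cells at both densities. It averaged 5.02 ± 0.36 in dense KO cells against -0.22 ± 0.64 in dense rescue cells, and 4.86 ± 0.27 in sparse KO cells against -1.65 ± 0.49 in sparse rescue cells (SD, n = 3 each). The difference was 5.24 ± 0.34 in dense cells (SE, adjusted p = 7.72e-08) and 6.51 ± 0.34 in sparse cells (adjusted p = 1.35e-08).

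Upstream, 29 genes of the PI3-kinase and AKT axis were tested. In dense KO against dense rescue cells 9 were higher and 11 lower (69%, against 61.6% of all genes), and with density in rescue cells 7 rose and 5 fell (41.4%, against 40.1% of all genes). Sgk1, a kinase that phosphorylates FOXO3, was lower in KO cells by -7.72 ± 0.28 when dense (SE, adjusted p = 4.8e-10) and by -5.22 ± 0.28 when sparse (adjusted p = 1.77e-08), and it fell with density in KO cells (-3.10 ± 0.28, adjusted p = 0.000681). Sgk3 of the same list went the other way between the lines. It was higher in KO cells when dense (limma, adjusted p = 1.04e-08) and when sparse (adjusted p = 4.88e-07). Sgk3 was well above background on 3 of 3 dense KO, 1 of 3 sparse KO and 0 rescue arrays, so its fitted differences are no measured sizes. It entered the test only through dense KO cells. Pik3r3, a regulatory subunit of PI3-kinase, rose with density in rescue cells (1.83 ± 0.20, adjusted p = 3.3e-05) and fell in KO cells (-0.79 ± 0.20, adjusted p = 0.0262), with an interaction of -2.63 (adjusted p = 0.000154).

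Proteins that modify or bind FOXO factors gave 34 tested genes, of which 4 rose and 9 fell with density in rescue cells (38.2%, against 40.1% of all genes; median -0.38). Those that fell in rescue cells included Cdk1 (-2.62 ± 0.26, SE, adjusted p = 2.04e-05), Cdk2 (-1.40 ± 0.25, adjusted p = 0.00113) and Skp2 (-1.74 ± 0.25, adjusted p = 0.000213), genes of the cell cycle whose products act on FOXO1. The interaction was 2.96 for Cdk1 (adjusted p = 0.000376) and 2.27 for Skp2 (adjusted p = 0.00116). Ctnnb1, beta-catenin, rose with density in both lines (0.80 ± 0.21 in KO cells, adjusted p = 0.0307; 1.07 ± 0.21 in rescue cells, adjusted p = 0.00166).

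Relatives of the targets did not all follow them. Sesn2, the remaining sestrin gene, fell with density in rescue cells (-1.46 ± 0.22, SE, adjusted p = 0.000348), opposite to Sesn1 and Sesn3, with an interaction of 1.26 (adjusted p = 0.0159). Of 17 genes around the sestrins and TORC1, 3 rose and 3 fell with density in rescue cells (35.3%, against 40.1% of all genes). Among them was Rragd, a Rag GTPase of the amino acid sensor, which rose by 2.81 ± 0.41 (adjusted p = 0.000254). Arrdc4, an alpha-arrestin related to Txnip, averaged -3.44 ± 0.13 in dense KO cells and -2.83 ± 0.14 in sparse KO cells, and -0.50 ± 0.15 in dense rescue cells and -0.54 ± 0.19 in sparse rescue cells (SD, n = 3 each). It was lower in KO cells at both densities (-2.94 ± 0.17 when dense, SE, adjusted p = 2.48e-08; -2.29 ± 0.17 when sparse, adjusted p = 2.94e-07). It fell with density in KO cells (-0.61 ± 0.17, adjusted p = 0.0385) and did not pass in rescue cells (0.04 ± 0.17, adjusted p = 0.879). Of 12 TXNIP partners and glucose genes, 0 rose and 3 fell with density in rescue cells (25%, against 40.1% of all genes), or 1 fell without sparse rescue culture 1. Of 8 other genes on the list of FOXO-driven muscle atrophy and ubiquitin ligases, 1 rose and 0 fell with density in rescue cells (12.5%, against 40.1% of all genes), the riser being Fbxo32.

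Likeness of pattern was measured as the root mean square difference over the 12 arrays after each gene's own mean was removed, in log2 units. The genes most like Pik3ip1 were Tcn2 (0.594) and Hic1 (0.610), against a spread of Pik3ip1 itself of 2.38 (SD over arrays). Klhl24 was closest to C1qtnf5 (0.275) and Hyal1 (0.332), Txnip to Ap3m2 (0.360) and Nck2 (0.363), and Trim63 to Ces1f (0.376) and Myl1 (0.412). Sesn3 was closest to Ifi27 (0.283) and Dnase1l1 (0.311), and Sesn1 to Mapk1ip1 (0.1504) and Ulk2 (0.180). Foxo1 was closest to Kiz (0.157) and Shc1 (0.159), Foxo3 to Wdr13 (0.202) and Sil1 (0.212), and Foxo4 to Hoxa7 (0.423) and Pelo (0.433). Within the set the closest pair was Foxo1 and Sesn1 (0.390), and Foxo4 lay at least 1.14 from every other gene.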

How the data were processed

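RNA of 12 mouse fibroblast cultures was measured on 1-colour Agilent arrays. Spot intensity values were extracted, background-subtracted and deposited by the authors with Agilent Feature Extraction 10.5.1.1, per the file headers. The authors' deposited value table holds log2 values, whose normalization is not given in the sources used here; it served as an alternative only. Processed intensities were averaged over spots of a probe, log2 transformed and centred on the 75th percentile of each array (294 to 1594 intensity units). A probe was kept if every array of some group read it well above background (25877 of 41174, with 23143 to 26173 such probes per array). Kept probes were named through their RefSeq accession, and the probe of highest mean stood for a gene. Groups were compared with limma 3.58.1 in R 4.3.3 (4 group means, 8 residual and 3.63 prior degrees of freedom), with Benjamini-Hochberg adjustment over 12411 genes. The pipeline was tested on simulated data.

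Replicate numbers follow the labels' experimental day, which pairs the cultures; 11 of 18 same-day pairs deviated together (correlation above 0.1, range -0.04 to 0.30). Alternatives were normexp (offset 50, on median signals) with quantile scaling, quantile, median and spike-in scaling (6 spike probes), the dim-probe filter, the mean over probes, day and slide blocks, a variance trend and leaving out each culture. Beside the set, its nearest 2 genes by pattern and Ptk2, genes were named by a rule: per list and comparison, the 3 called genes of largest change and the largest called change in the opposite direction. The genes of the set and the lists were chosen with earlier results of these data known. Separate cultures on different days are the replicates, so p-values measure the spread between them. The number of arrays limits precision.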

Additional observations from a re-analysis of the deposited data

Results flagged for a closer look

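In 4 genes of the FOXO set the density difference itself differed between the lines, by the limma interaction term (dense minus sparse in KO cells, minus the same in rescue cells). Of all genes 20.8% passed that term. The interaction was -4.31 for Trim63 (adjusted p = 0.000152), which was well above background in dense rescue cells alone, and -3.02 for Pik3ip1 (adjusted p = 0.00391). It was -2.63 for Klhl24 (adjusted p = 0.000826) and -2.29 for Txnip (adjusted p = 0.000938). Spike-in scaling kept the call of Trim63 and lost those of Pik3ip1 (-0.67), Klhl24 (-0.28) and Txnip (0.0573). In each of the 4 genes the density difference was positive on 3 of 3 days in rescue cells. In KO cells it was positive on 3 of 3 days for Pik3ip1 and Txnip, on 2 of 3 for Klhl24 and on 1 of 3 for Trim63.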

How the results depend on the processing

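The density rise in rescue cells gave 7 to 9 calls of the 9 genes, and the lower levels in dense KO cells 7 to 8, also with 1 culture left out. The exceptions were the deposited table as labelled, spike-in scaling between the dense lines, and the filter for all 12 arrays, which tests only 6 of the genes and called all 6. Over all genes, leaving out 1 culture gave 4245 to 5163 calls with density in rescue cells and 7020 to 7819 between the dense lines. Sparse line calls (4 to 6 of 9 with 1 culture left out, 5330 to 6238 over all genes) and KO density calls changed with the setting, and the cause was not tested unless named. The probes of Foxo3, Foxo4 and Trim63 lay near background, where signal limits precision.

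Calls with density in KO cells over the 9 genes numbered 2 with quantile scaling, 4 with median centring, 9 with spike-in scaling, 3 with the filter for all 12 arrays, which tests fewer genes, 3 with the mean over probes, 2 with the replicate block by day, 2 with the slide as a fixed block, 4 with the slide as a random block and 3 with a variance trend. Over all genes these settings called, in the same order, 1513, 1520, 12353, 1412 (of 10027), 1737, 1606, 1390, 1888 and 1495. Leaving out 1 culture gave 0 to 3 (3 without dense KO culture 3, 1 without dense rescue culture 2), and over all genes 513 to 1602, with 611 without sparse KO culture 1, 675 without sparse KO culture 3, 879 without dense KO culture 1 and 513 without dense KO culture 2, against 1360 with all cultures. The interaction gave 4 to 7 calls, 7 without dense KO culture 1 or dense rescue culture 3, apart from 3 with spike-in scaling, 3 with the filter for all 12 arrays, which tests 6 of the genes, and 0 with the deposited table as labelled. Over all genes it gave 2582 without dense KO culture 1, 2453 without dense rescue culture 3 and 2350 of 10027 with that filter. The replicate block changed no other call of the set.

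Normexp turned density differences in KO cells to 0.011 for Foxo3, 0.0432 for Foxo4 and 0.0797 for Trim63, and the interaction of Sesn1 probe A_51_P266644 to 0.10. Quantile scaling turned Trim63 in KO cells to 0.10. Median centring turned Foxo3 (0.0498) and Trim63 (0.0678) there and left 3 sparse line calls. It moved the gene calls to 1788 higher and 4053 lower between the sparse lines (2888 and 3180 at the 75th percentile), to 1227 higher and 293 lower with density in KO cells (677 and 683) and to 1693 higher and 698 lower in the interaction (1402 and 1181).

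Spike-in scaling called 9474 genes between the sparse lines (585 higher, 8889 lower), 12353 with density in KO cells (12351 higher, 2 lower) and 10748 in the interaction (10696 higher, 52 lower). It called 5328 genes higher and 1505 lower between the dense lines, and 3119 higher and 324 lower with density in rescue cells. It left 4 calls of the set between the dense lines. Between the sparse lines it turned Klhl24 to -0.67, Trim63 to -0.84, Txnip to -0.60, the second Foxo1 probe to -1.23 and the second Txnip probe to -0.33, and between the dense lines Foxo1 to 0.14 and its second probe to 0.18. With density in KO cells Foxo3 turned to 2.87, Foxo4 to 2.62, Trim63 to 2.89 and the second Txnip probe to 2.22. The interaction turned to 2.01 for Foxo1, 1.22 for Foxo3, 1.37 for Foxo4, 1.44 for Sesn1, 1.31 for Sesn3, 0.0573 for Txnip, 1.40 for the second Foxo1 probe and 1.68 and 1.90 for Sesn1 probes A_51_P266644 and A_52_P53596.

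The deposited table as labelled, with 4 columns that match the other line, gave 0 calls of the set and 0 genes between the sparse lines, the dense lines, with density in rescue cells and in the interaction, and 1 gene with density in KO cells. It turned Klhl24 (-0.0187) and Sesn1 probe A_51_P266644 (0.11) between the sparse lines, Foxo1 (0.20), Foxo4 (-0.26) and Sesn1 (0.0667) between the dense lines, Foxo3 (0.0627), Trim63 (0.60) and the second Txnip probe (0.16) with density in KO cells, and the interactions of Foxo1 (0.23), Sesn1 (0.30) and Sesn1 probe A_52_P53596 (0.0050). Without day 3, chosen after seeing the data, that table gave 3 sparse line calls and 3 KO density calls of the set. It called 5089 genes between the sparse lines, 731 with density in KO cells and 1353 in the interaction. Foxo3 (0.0555), Foxo4 (0.0365) and Trim63 (0.0960) turned in KO cells.

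The scanner files without day 3, also chosen after seeing the data, gave 2 KO density calls of the set, 635 genes with density in KO cells and 1238 in the interaction, and turned Foxo4 between the dense lines to -0.12. The mean over probes turned Txnip in KO cells to -0.24. The slide as a fixed block left 2 sparse line calls (4400 over all genes), and turned Foxo4 between the dense lines to -0.28 and the second Foxo1 probe between the sparse lines to -0.33. With 1 culture left out, the sign turned for Trim63 in KO cells (-0.55 to 0.0506), Sesn1 between the sparse lines (-0.29 to 0.0916), Foxo4 with density in rescue cells (-0.0042 to 1.32) and Foxo4 between the dense lines (-0.17 to 1.16).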
